A study of Caenorhabditis elegans with 2 samples.

Results

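The regions described are the loci of small nucleolar RNA (snoRNA) genes in a chromatin immunoprecipitation sequencing (ChIP-seq) experiment on R02D3.7, a protein-coding gene that the annotation names rcat-1. The members were all genes of biotype snoRNA on the nuclear chromosomes of the WBcel235 annotation from Ensembl, 346 of 46890 nuclear genes. Each gene was extended by 200 bp on both sides, and the region of highest signal with its summit in that window was taken from each peak list. The samples were whole Caenorhabditis elegans L3 larvae, males and females pooled, of strain OP218. That strain carries unc-119(ed3) III and the transgene wgIs218, from which R02D3.7 is made with an eGFP tag, and both biological replicates come from this 1 strain; the labels do not name the promoter of the transgene. The 2 replicates form 1 group, and the samples analysed here include no control sample. Sites of the tagged protein and regions that would be listed whatever protein carried the tag cannot be told apart. Below, a marked gene is one whose window holds a summit of the IDR list (irreproducible discovery rate), the thresholded peak list that the authors derived from both replicates.

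snoRNAs guide chemical changes of ribosomal RNA and other RNAs in the nucleolus. Those of the box C/D type pair with a target to place ribose methylation by fibrillarin, and those of the box H/ACA type place pseudouridine by dyskerin. Membership here rested on the annotated biotype alone. Whether each member is such a guide was not checked, smy-2 and smy-3 included. Some snoRNA genes lie in introns of protein-coding genes, where the RNA can be cut out of the spliced intron, and others have a promoter of their own. In worms, genes of spliceosomal small nuclear RNAs (snRNAs) carry a proximal sequence element (PSE) a short way upstream of their start. Transfer RNA (tRNA) genes carry their promoter inside the transcribed part as box A and box B, which are read by RNA polymerase III.

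Upstream stretches of marked genes are shown because a pair of letter patterns recurred in them and divides the loci further on. The first pattern was the letters GCGNAAC followed, after 0 to 16 bases, by TGTC, and is called PSE-like here. The 5 shown are marked genes of high signal that hold it, given 5′ to 3′ on the strand of the gene, from 85 bases upstream to 15 bases inside the gene. F25H2.15 and F59C6.15, which also hold it and had a higher signal than T06D8.11 and C16D9.11, are not shown. Capitals mark the GCGNAAC and TGTC letters. The stretches were read from WBcel235 (ce11) at chrV:8500494-8500593 (+) for ZK994.7, chrII:15025879-15025978 (-) for Y53F4B.47, chrV:8349023-8349122 (+) for C08D8.3, chrII:11224097-11224196 (+) for T06D8.11 and chrV:8228955-8229054 (-) for C16D9.11.
ZK994.7: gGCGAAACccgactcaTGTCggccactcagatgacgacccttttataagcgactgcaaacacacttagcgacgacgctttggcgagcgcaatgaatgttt
Y53F4B.47: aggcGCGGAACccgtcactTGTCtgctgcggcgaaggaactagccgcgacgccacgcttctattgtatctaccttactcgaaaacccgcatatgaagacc
C08D8.3: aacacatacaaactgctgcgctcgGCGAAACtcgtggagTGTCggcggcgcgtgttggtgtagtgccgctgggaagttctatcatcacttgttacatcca
T06D8.11: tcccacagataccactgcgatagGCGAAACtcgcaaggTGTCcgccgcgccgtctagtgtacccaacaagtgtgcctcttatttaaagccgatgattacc
C16D9.11: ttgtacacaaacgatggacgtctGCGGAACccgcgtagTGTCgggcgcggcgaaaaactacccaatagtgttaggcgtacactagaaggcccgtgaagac

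The second pattern was TGGNNNANNNG followed, after 15 to 60 bases, by GTTCNA, the order of letters of tRNA boxes A and B, and is called box A-box B-like here. The stretches below run from 110 bases upstream to 15 bases inside the gene, and capitals mark the TGGNNNANNNG and GTTCNA letters. They were read at chrV:12303598-12303722 (+) for C51F7.3, chrII:11960788-11960912 (+) for W03C9.9, chrII:10840207-10840331 (+) for M106.6, chrV:11314148-11314272 (+) for T03F7.8 and chrV:15873912-15874036 (-) for T06C12.16. T08B2.13, whose letters overlap a pseudogene, had a higher signal than T03F7.8 and T06C12.16 and is not shown. In C51F7.3 the letters lie inside C51F7.4, a second annotated snoRNA gene just upstream. A further GTTCNA in C51F7.3, gttcga in lower case, also lies within the 15 to 60 bases, and the nearer GTTCNA was used.
C51F7.3: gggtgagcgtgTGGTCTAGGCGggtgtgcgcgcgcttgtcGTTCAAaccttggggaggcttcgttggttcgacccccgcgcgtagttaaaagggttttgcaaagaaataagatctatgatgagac
W03C9.9: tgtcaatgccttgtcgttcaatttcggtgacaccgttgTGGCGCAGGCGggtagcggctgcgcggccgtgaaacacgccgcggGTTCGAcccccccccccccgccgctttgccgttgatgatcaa
M106.6: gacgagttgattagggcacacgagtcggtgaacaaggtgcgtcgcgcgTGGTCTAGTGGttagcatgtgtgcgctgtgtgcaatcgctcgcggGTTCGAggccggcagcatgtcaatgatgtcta
T03F7.8: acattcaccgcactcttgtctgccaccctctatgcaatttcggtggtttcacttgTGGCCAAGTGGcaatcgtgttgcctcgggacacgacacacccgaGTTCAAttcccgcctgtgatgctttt
T06C12.16: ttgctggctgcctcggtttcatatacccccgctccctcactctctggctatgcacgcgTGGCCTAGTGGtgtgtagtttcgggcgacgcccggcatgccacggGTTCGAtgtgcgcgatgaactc

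C08D8.3 is also shown as the whole gene, chrV:8349108-8349187 (+), to set the letters upstream of a snoRNA gene apart from those inside it. Capitals mark the box C letters TGATGA near its start and the box D letters CTGA near its end.
C08D8.3: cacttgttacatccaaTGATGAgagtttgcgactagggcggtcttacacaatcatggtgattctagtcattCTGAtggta

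The IDR list held 1584 peaks, the pooled relaxed list 30000 regions, the replicate 1 list 30000 and the replicate 2 list 29367. Signal is the authors' value per region, on a scale that the sources used here do not give, and it ranks regions within a list only. IDR peaks carry the signal of the pooled list, which ran up to 4055 with a median of 82.2 over the IDR peaks. The lowest signal in the IDR list was 50.7, and the peaks of all 59 marked genes were among the first 1584 pooled regions. Only 37 of the 59 were among the first 1584 regions of both replicate lists. A mark thus goes with high pooled signal and does not mean a high rank in each replicate. The authors' −log10 q-value was at least 2.95 in the IDR list, with a median of 3.43, while its median was 0.156 in the pooled list, so a relaxed region alone is weak evidence. Read depth is unknown, so no counting error is attached to a single region.

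An IDR summit lay within 200 bp of 59 snoRNA genes, 17.1% of the 346. Of all nuclear genes, 3.39% had an IDR summit within the same distance, a share that includes 15363 piRNA genes at 0.137%. By class it was 13.2% of snRNA genes (17 of 129), 8.82% of tRNA genes (54 of 612) and 5.36% of protein-coding genes. Of genome windows of 530 bp, the length of a median snoRNA gene with its flanks, 0.829% held one. The pooled list gave a summit at 167 snoRNA genes (48.3%), against 29.9% of all nuclear genes and 14.9% of the 530 bp windows. The replicate 1 list reached 158 snoRNA genes (45.7%) and the replicate 2 list 156 (45.1%), against 30.9% of all nuclear genes in each. The 59 genes used 58 distinct peaks, because C51F7.3 and C51F7.4 share 1 summit. At 140 snoRNA genes neither replicate list nor the pooled list had a summit in the window.

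The peaks at snoRNA genes were of middle rank. Their median signal was 71.9, against 82.2 over all 1584 IDR peaks, and 22 of the 58 exceeded that overall median. None was among the first 200 peaks of the list, 6 were among the first 400 and 23 among the first 800. The highest was rank 259 of the list, so no snoRNA gene was named for a place among the first 100 peaks. Marked genes were shorter, with a median of 91.0 bp against 132 bp for the unmarked ones. The 100 bases upstream of marked genes were richer in G and C, with a median of 56% against 42%, and the part of base composition in the result was not tested.

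Most IDR summits lay just before the snoRNA gene. The summit was upstream of the gene start at 47 of the 59 marked genes (79.7%), inside the gene at 9 and past its end at 3. The median position was 37.0 bp upstream of the start, written -37.0 bp, with quartiles of -67.5 and -8.50 bp, and 40 genes had it within 100 bp upstream. At the 108 genes with a pooled summit but no IDR summit, the position was upstream at 57 (52.8%), inside at 24 and past the end at 27. At 26 of the 59 genes the summit also lay in the promoter window of a protein-coding gene, from 1000 bp upstream to 200 bp downstream of a transcript start.

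**Figure D1:**
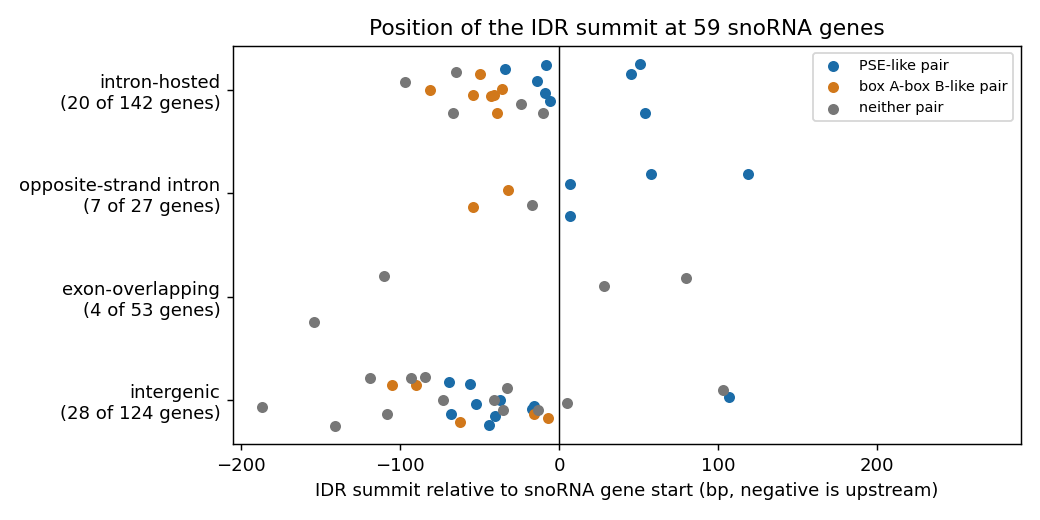
Each point is the IDR summit of 1 of the 59 marked snoRNA genes, placed in bp from the gene start (negative is upstream) and in rows by host class, with colours for the letters found upstream. Summits of intron-hosted and intergenic genes gather left of 0, with medians of -35.0 and -48.0 bp, and the vertical spread within a row has no meaning.

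Intron-hosted genes lie whole inside an intron of a protein-coding transcript on their own strand and touch no coding exon, while intergenic genes overlap no protein-coding gene on either strand. Of 142 intron-hosted snoRNA genes 20 were marked (14.1%), and of 124 intergenic ones 28 were marked (22.6%), a difference of -8.50 percentage points. Using the first 1584 regions of 1 replicate list in place of the IDR list, the difference was -9.80 for replicate 1 and -6.68 for replicate 2. It was -4.46 and -4.48 with windows of 100 and 500 bp, -1.83 with the higher-signal 50 percent of the IDR peaks and -5.24 without genes near repeated 36-base runs. It was -1.17 when genes within 500 bp of a coding transcript start were left out, and 0.50 when the summit had to lie inside the gene itself. Genes are not replicates of a condition, so no test was made on these shares. The smaller classes were 27 genes in an intron on the opposite strand, of which 7 were marked (25.9%), and 53 that overlap a coding exon, of which 4 were marked (7.55%).

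Among genes found in the pooled list, the median signal was 28.48 at 58 intron-hosted genes and 44.5 at 66 intergenic genes. Among marked genes alone the medians were 79.57 and 75.02. The intron-hosted and intergenic ranges overlapped almost wholly, at 51.4 to 169 for marked intron-hosted genes and 51.4 to 177 for marked intergenic genes. No peak of the IDR list had a signal below 50.7, so the list itself sets the lower ends and draws the marked medians together.

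The 10 intron-hosted genes of highest signal each had a different host gene. ZK994.7, in the peroxidasin gene pxn-1, had a pooled signal of 169, with 82.0 in replicate 1 and 86.3 in replicate 2. Its summit lay 5656 bp from the nearest annotated start of pxn-1 and at -34.0 bp from the snoRNA gene. C08D8.3, in C08D8.1, had 148 pooled, 75.9 in replicate 1 and 82.7 in replicate 2. Both loci were thus listed in each replicate, with a summit far from the host start.

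T06D8.11, in plpr-1, had a pooled signal of 131, with 78.8 in replicate 1 and 53.1 in replicate 2. C16D9.11, in rol-3, a receptor tyrosine kinase gene, had 131 pooled, 76.2 in replicate 1 and 65.3 in replicate 2. The summits were at -6.00 and -9.00 bp from the snoRNA genes, and that at C16D9.11 lay 9431 bp from the start of rol-3. smy-2, in C33A12.3, had 128 pooled, 53.6 in replicate 1 and 79.2 in replicate 2. Unlike the other 4, its summit was 205 bp from a start of the host, at 51 bp after the snoRNA gene start.

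C51F7.3, in frm-7, which encodes a FERM domain protein, had a pooled signal of 116, with 64.6 in replicate 1 and 48.6 in replicate 2, and its neighbour C51F7.4 has the same values from the same summit. Y37E3.20, in pcyt-2.1, a gene of phosphatidylethanolamine synthesis, had 105 pooled, 67.4 in replicate 1 and 49.1 in replicate 2. D1046.6, in cfim-2, which encodes a subunit of a pre-mRNA cleavage factor, had 91.7 pooled, 43.5 in replicate 1 and 45.8 in replicate 2. The last pair had summits 292 and 225 bp from a host start, inside the promoter window of the host. W04D2.7, in the innexin gene inx-11, had 91.5 pooled, 52.3 in replicate 1 and 37.5 in replicate 2. F11A10.9, in rbm-34, which encodes an RNA-binding motif protein, had 84.9 pooled, 37.7 in replicate 1 and 41.5 in replicate 2. Their summits stood 1806 and 1265 bp from the host starts.

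Over the 20 marked intron-hosted genes, the summit was more than 1000 bp from any start of the host at 15, with a median of 1441 bp and a range of 83.0 to 16035 bp. The farthest was M106.6, the box A-box B-like gene shown above, in mix-1, a condensin subunit gene. Its signal was 74.2 pooled, 34.2 in replicate 1 and 41.6 in replicate 2.

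The promoter window of the host held an IDR summit at 7 of the 20 marked intron-hosted genes and at 58 of the 122 unmarked ones (47.5%). At 3 of the 7, Y37E3.20, smy-2 and F55A11.10, the summit that marks the snoRNA gene lay there, with none from outside the snoRNA window. At D1046.6 the marking summit lay in the host window too, beside another IDR summit with a signal of 55.3. Of all protein-coding genes, 7.72% had an IDR summit in that window. Ribosomal protein genes, taken here as those named rpl or rps, hosted 19 snoRNA genes in 13 host genes. An IDR summit stood at the host promoter for 18 of the 19, and 0 of the 19 were marked. Pooled summits were listed at 9 of the 19, with signals from 11.5 to 30.2. None of the 19 held a PSE-like or box A-box B-like pair. Of all 119 intron-hosted genes with neither pair, 5 were marked (4.20%), a share near that of the 19. No host gene had a pair of marked snoRNA genes. The 15 host genes with more than 1 snoRNA gene held 34, of which 0 were marked and 5 had a pooled summit, while 108 genes alone in their host had 20 marked (18.5%). The groups also differed in upstream letters, as 0 of the 34 and 23 of the 108 held a PSE-like or box A-box B-like pair. nol-56, a core protein gene of the box C/D particle, hosts 4 snoRNA genes, and top-2, the topoisomerase II gene, hosts 3, all with no summit in the pooled list.

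The PSE-like and box A-box B-like patterns were chosen after the sequences upstream of marked genes had been read, so the shares that follow are a description. The search covered 200 bases upstream to 20 bases inside the gene on the gene's strand. The PSE-like pair was found at 33 snoRNA genes (9.54%) and the box A-box B-like pair at 34 (9.83%), and 0 genes held both. Of all other nuclear genes, 0.254% held the first pair and 0.481% the second. By class, the PSE-like pair was found at 32 of 129 snRNA genes (24.8%) and 31 of 19973 protein-coding genes (0.155%). On the other strand of the same windows the pairs were found at 3 and 2 snoRNA genes. The GTTCNA part includes GTTCGA, which was also searched alone.

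Among the 33 PSE-like genes 22 were marked (66.7%), among the 34 box A-box B-like genes 14 were marked (41.2%), and among the 279 genes with neither pair 23 were marked (8.24%). Genes with either pair made up 19.4% of all snoRNA genes and 61.0% of the marked ones. In the first 1584 regions of replicate 1 the counts were 22, 15 and 18, and in those of replicate 2 they were 19, 10 and 21. In each replicate taken alone the marked share was highest at PSE-like genes and lowest at genes with neither pair. The letters were read from genes marked through these same replicates, so this order is not separate support. The median pooled signal was 80.1 at 26 PSE-like genes, 49.0 at 31 box A-box B-like genes and 22.6 at 110 genes with neither. In replicate 1 these medians were 40.5, 26.6 and 11.8, and in replicate 2 they were 46.2, 22.8 and 14.8.

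**Figure D2:**
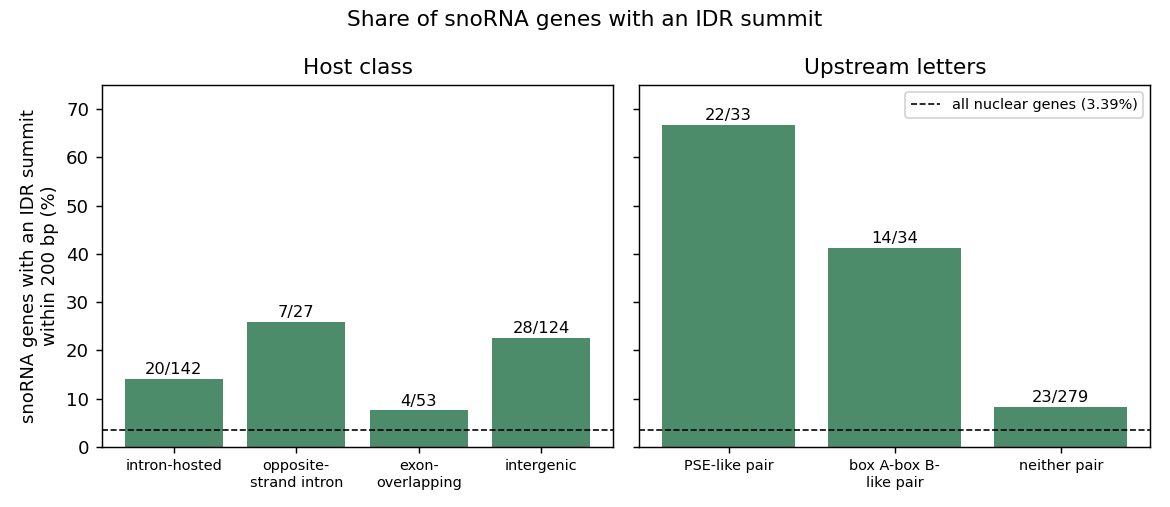
Bars give the percent of snoRNA genes with an IDR summit within 200 bp by host class (left) and by upstream letters (right), with marked and total genes above each bar, and the dashed line marks the 3.39% of all nuclear genes. Shares ran from 7.55% to 25.9% across host classes and from 8.24% to 66.7% across upstream letters. The letters were chosen after reading upstream sequences of marked genes, so the widths of these ranges cannot be compared.

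**Figure D3:**
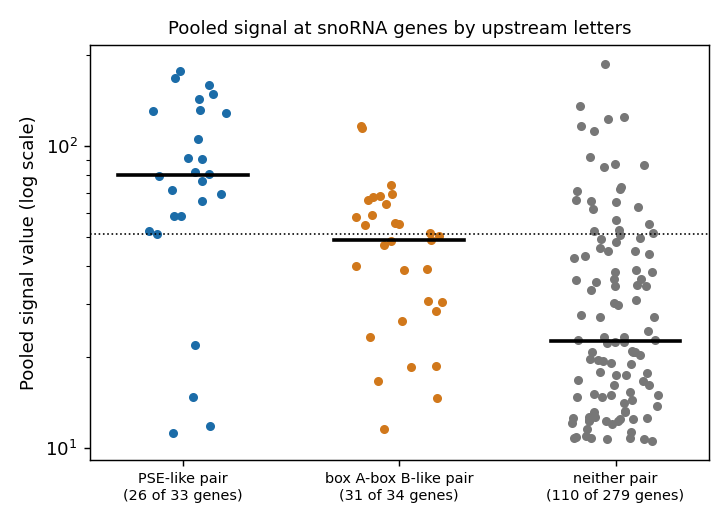
Each point is the pooled signal (log axis) of 1 snoRNA gene that has a pooled summit, by upstream letters, with the median as a bar, and the dotted line marks 51.1, the lowest signal of a marked gene. Medians were 80.1, 49.0 and 22.6, and all 3 groups reach below the line.

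The PSE-like letters sat in a narrow range of distances from the gene start. The PSE-like pair began between -89 and -58 bp, with a median of -63.0 bp, and at 24 of 33 genes it began between -66 and -60 bp. It ended at a median of -45.0 bp. The box A-box B-like pair began at a median of -59.0 bp, over a wider range of -175 to -42.0 bp, and ended at a median of -9.00 bp. The IDR summit had a median position of -11.5 bp at PSE-like genes, over a range of -69 to 119 bp with 8 of 22 not upstream, and of -46.5 bp at box A-box B-like genes. Without regard to side, the median distances from the start were 42 and 46.5 bp. At box A-box B-like genes all 14 summits were upstream, from -105 to -7.00 bp, and 13 were within 50 bp of the middle of the pair. At PSE-like genes 14 of 22 were within 50 bp of the middle of the pair, and the summit lay a median of 42.5 bp downstream of that middle. No annotated tRNA or snRNA gene overlapped the letters (0 genes in each case), while another noncoding RNA gene overlapped them at 5 PSE-like and 7 box A-box B-like genes, and a pseudogene at 2 of the box A-box B-like genes, T08B2.13 and Y59E1B.14.

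**Figure D4:**
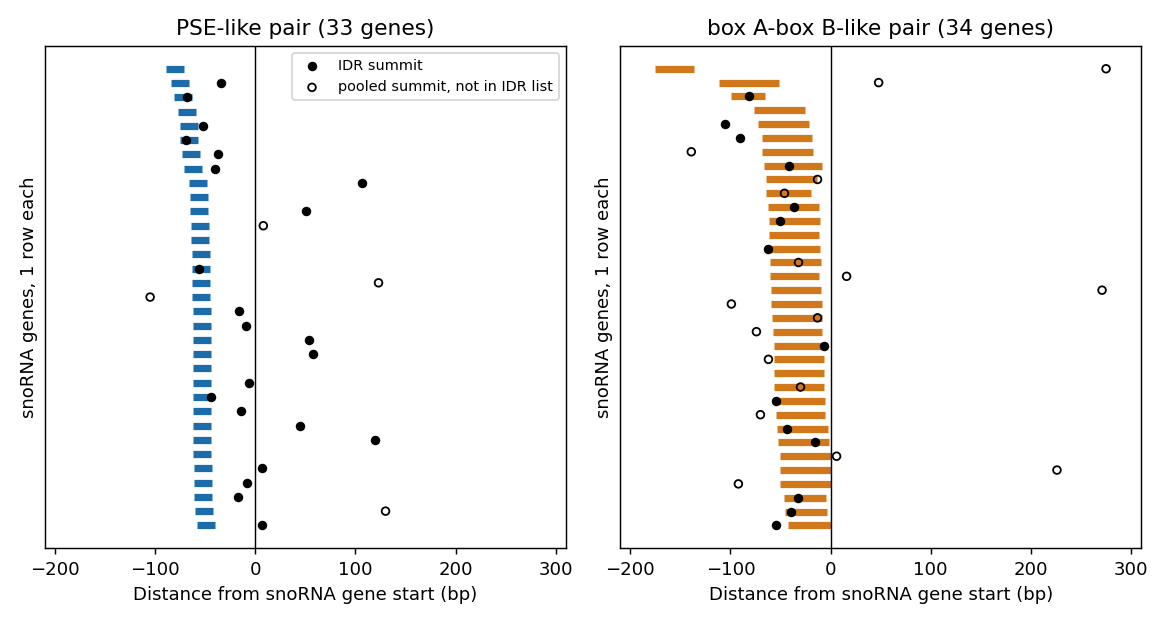
Each row is 1 snoRNA gene with the PSE-like pair (left) or the box A-box B-like pair (right), with distance from the gene start in bp on the horizontal axis, the extent of the letters as a coloured bar, the IDR summit as a filled point and a pooled summit outside the IDR list as an open point. The PSE-like bars line up near a start of -63.0 bp, and the filled points of the right panel lie on or close to the bars.

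Host class and upstream letters were then read together. Of intron-hosted genes with either pair 15 of 23 were marked (65.2%), and of intergenic genes with either pair 15 of 30 were marked. Without either pair, 5 of 119 intron-hosted genes (4.20%) and 13 of 94 intergenic genes (13.8%) were marked. Of the 10 intron-hosted PSE-like genes 8 were marked, and 2 of the 10, Y37E3.20 and smy-2, had an IDR summit in the promoter window of the host, the same summit that marks them. A summit in the host window was present at 57 of the 119 intron-hosted genes with neither pair (47.9%). The 23 marked genes with neither pair were nearer coding starts, with a median distance of 332 bp from summit to start and 15 summits in a coding promoter window. The 22 marked PSE-like genes had a median of 1727 bp and 8 such summits, and the 14 box A-box B-like genes 1149 bp and 3 such summits.

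Base composition moved with the marks inside each letter group as well. The median G and C share of the 100 upstream bases was 57% at marked and 51% at unmarked PSE-like genes, 57.5% and 52% at box A-box B-like genes, and 51% at marked and 40% at unmarked genes with neither. Its part in the result was not tested.

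Among the 20 marked genes of highest signal, 11 had the PSE-like pair, 2 the box A-box B-like pair and 7 neither, and 9 were intron-hosted, 9 intergenic and 2 exon-overlapping. F39B2.14, an exon-overlapping gene, had the highest signal, with 188 pooled, 89.4 in replicate 1 and 99.3 in replicate 2. Its summit lay 49.0 bp from a coding start, in the promoter windows of rps-26, a ribosomal protein gene, and tmem-107. F25H2.15, an intergenic PSE-like gene, followed with 177 pooled, 94.8 in replicate 1 and 80.9 in replicate 2, and lay in no coding promoter window. The intergenic PSE-like gene Y53F4B.47 had 159 pooled, 86.7 in replicate 1 and 76.5 in replicate 2. Its summit lay 153 bp from a coding start, in the promoter window of cmtr-1. F59C6.15, also intergenic and PSE-like, had 143 pooled, 59.6 in replicate 1 and 81.6 in replicate 2, in the window of F59C6.18. All 3 of these PSE-like loci were thus listed in both replicates. At F59C6.15, however, the replicate summits stood apart, at -97 bp from the gene start in replicate 1 and at 90 bp in replicate 2.

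M7.15, with neither pair, had 136 pooled, 78.0 in replicate 1 and 68.0 in replicate 2, in the promoter windows of klc-1, a kinesin light chain gene, and let-70, a ubiquitin-conjugating enzyme gene. F09G2.14 had 124 pooled, 52.8 in replicate 1 and 68.4 in replicate 2, in the windows of F09G2.2 and attf-2. W06H8.17, in the window of W06H8.6, had 123 pooled and 60.3 in replicate 1, and no replicate 2 summit lay within 200 bp of it. Each of these loci thus shares its summit with a coding promoter. W03C9.9, an intergenic box A-box B-like gene, had 114.6 pooled, 54.5 in replicate 1 and 56.2 in replicate 2, far from coding starts at 1335 bp. C36E8.11 had 112 pooled, 58.9 in replicate 1 and 50.7 in replicate 2, in the window of tif-1A. C16D9.10, an intergenic PSE-like gene, had 90.7 pooled, 35.1 in replicate 1 and 51.3 in replicate 2. The other 39 marked genes had signals from 51.1 to 87.3.

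Repeated stretches could share reads. At 6 marked genes some 36-base runs within 100 bp of the summit occurred elsewhere in the genome, at most 25.3% of the runs, at F25H2.15. The others were F59C6.15 (20.5%), T08B6.64 (16.9%), T26A8.6 (12.7%), Y67A10A.14 (8.43%) and C05H8.3 (4.82%). All 6 had the PSE-like pair, 5 were intergenic, and the sources used here do not say how the aligner placed such reads.

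The replicates ranked the loci alike in part. At 117 snoRNA genes both replicate lists had a summit in the window, and across these the Spearman rho of the signals was 0.73 and the Pearson correlation of log2 signals 0.73. The genes share the 2 libraries and 1 control alignment, so this is a description. Within the 57 marked genes found in both lists rho was 0.53, and within the 60 unmarked ones 0.43. A summit in replicate 1 alone was found at 41 genes and in replicate 2 alone at 39. The replicate summits of marked genes lay a median of 31.0 bp apart, and at 35 of 57 genes within 50 bp. Both lists ranked 37 of the 59 marked genes among their first 1584 regions.

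A few marked genes rested mostly on 1 replicate. F38E11.14, in the cyclic nucleotide-gated channel gene cng-3, ranked 24727 in replicate 1 and 1036 in replicate 2. C07A9.14, in an intron of ncx-7 on the opposite strand, ranked 682 in replicate 1 and 12494 in replicate 2. F17C11.24 had no replicate 1 summit in its window and ranked 642 in replicate 2. These 3 genes were singled out after their values were seen.

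**Figure D5:**
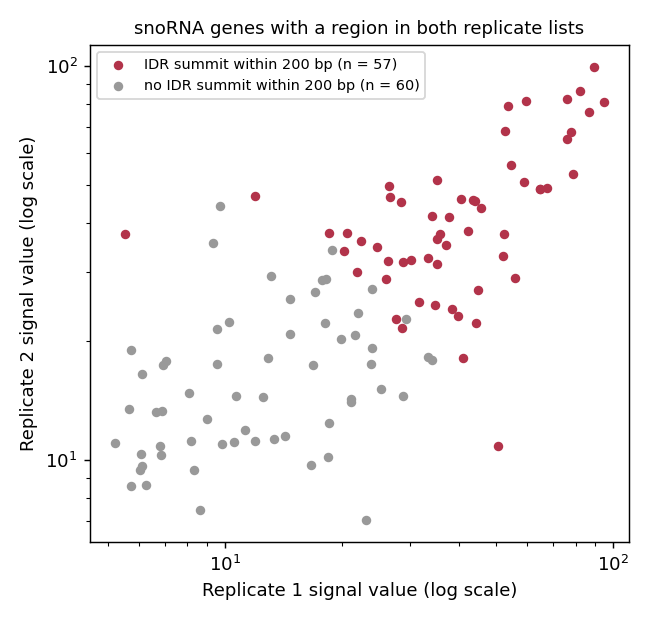
Each point is 1 of the 117 snoRNA genes with a summit in both replicate lists, with the signal value of replicate 1 on the horizontal and of replicate 2 on the vertical log axis. The 57 marked genes lie mostly at the upper right, apart from F38E11.14 at 5.53 in replicate 1 and C07A9.14 at 10.9 in replicate 2.

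Box letters inside the gene identified few genes. By the rule that TGATGA starts in the first 20 bases and CTGA lies in the last 20, 15 genes had box C and box D letters, and 82 others had ACA ending 2 to 5 bases before the gene end. Of these, 8 of 15 (53.3%) and 10 of 82 (12.2%) were marked, against 41 of the 249 genes with neither (16.5%). Upstream letters went with this split. Of the 15 box C and box D genes, 5 had the PSE-like pair and 4 of them were marked, 5 had the box A-box B-like pair and 4 were marked, and 5 had neither and 0 were marked. None of the 82 ACA genes had the PSE-like pair, and the annotation gives no box type against which the rule could be read.

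Shorter promoter letters were read on both strands of the 200 bases upstream. The TATA letters TATAAA were found at 11 of 59 marked genes (18.6%), 49 of 287 unmarked snoRNA genes (17.1%) and 29.2% of all other nuclear genes. The box B letters GTTCGA were found at 12 marked genes (20.3%), 30 unmarked ones (10.5%) and 6.18% of other genes. The longer form GTTCGANNC was found at 9 (15.3%), 12 (4.18%) and 1.15%. The E-box CACGTG was found at 0 marked genes, 14 unmarked ones (4.88%) and 2.88% of other genes. The GATA letters TGATAA were found at 4 marked genes (6.78%), 47 unmarked ones (16.4%) and 21.2% of other genes.

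Chromosome X held 33 snoRNA genes, of which 1, D2021.6, was marked (3.03%). On the autosomes the share ran from 11.1% on chromosome III (6 of 54) and 12.2% on chromosome I (9 of 74), through 19.7% on II (14 of 71) and 22.0% on IV (13 of 59), to 29.1% on V (16 of 55). Over all nuclear genes the shares were 3.27% on X, 7.33% on III, 6.83% on I, 5.52% on II, 1.32% on IV, where most piRNA genes lie, and 3.46% on V. Over protein-coding genes they were 3.33%, 8.03%, 7.68%, 5.48%, 5.36% and 3.62% in the same order of chromosomes.

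The limits of the rule left some loci close to either side. The marked genes with summits farthest from the gene were W06H8.17 at 187 bp, C02F5.15 at 154 bp and C54G4.16 at 141 bp. Just outside were F54E7.10, in rps-12, whose nearest IDR summit lay 251 bp away with a signal of 1967 and rank 6, K02F3.15 at 269 bp (143) and F37F2.4 at 293 bp (113). Among pooled summits, the farthest inside were those of R10A10.3 at 194 bp, Y102A11A.16 at 189 bp and C23G10.12 at 187 bp. The lowest signal of a marked gene was 51.1, at C05H8.3, and the highest of an unmarked one was 50.6, at T04A8.17. The lowest signal in the whole IDR list was 50.7, so this separation follows from the list and is not a result about snoRNA genes.

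Of 8 listed genes for core proteins of snoRNA particles, 6 had an IDR summit in the promoter window, against 7.72% of all protein-coding genes. fib-1, the methyltransferase fibrillarin of the box C/D particle, had the highest signal, with 249 pooled at rank 193, 153 in replicate 1 and 99.9 in replicate 2. Of the other core box C/D protein genes, nol-58 had 84.8 pooled, 71.2 in replicate 1 and 32.5 in replicate 2. snu-13 had 57.4 pooled, 25.9 in replicate 1 and 34.5 in replicate 2, and nol-56 had 52.1 pooled, 19.6 in replicate 1 and 24.6 in replicate 2. All 4 box C/D protein genes were thus in the IDR list.

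In the box H/ACA particle, Y48A6B.3, the NHP2 gene, had 99.8 pooled, 42.4 in replicate 1 and 54.3 in replicate 2. nola-3, the NOP10 gene, had 56.4 pooled, 34.8 in replicate 1 and 24.5 in replicate 2. dkc-1, the pseudouridine synthase dyskerin, had 36.7 pooled, 19.1 in replicate 1 and 22.5 in replicate 2, and garr-1, the GAR1 gene, had 32.0 pooled, 13.9 in replicate 1 and 19.9 in replicate 2. The last 2 were listed in both replicates and in the pooled list, below the IDR list.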

How the data were processed

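Peak lists in narrowPeak form on ce11 were used: the IDR list, the pooled relaxed list and 1 relaxed list per biological replicate. Per the deposited file list, the authors derived the relaxed lists from the replicate alignments with a shared control alignment. The signal of each region, the −log10 q-value and the summit offset were deposited by the authors, and the q-value served only to describe the lists. The peak caller, aligner, depth and cut-off on IDR were not given in the sources used here. The ce10 lists of the same experiment were not used here.

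Genes came from Ensembl release 115 and bases from the NCBI RefSeq WBcel235 sequence, with no region beyond a chromosome end (0 regions). A summit was the region start plus the deposited offset, and the region of highest signal was taken for a window. Members, gene lists and letters were chosen with earlier results of these data known, and the PSE-like and box A-box B-like letters after reading upstream sequences of marked genes. Named genes were the 20 of highest IDR signal, the 10 intron-hosted ones, hosts of more than 1 marked gene (none met this), genes at the limits of the window and the snoRNP protein genes. No test across samples was possible with 1 group, so counts, shares and medians stand beside the same over all nuclear genes. On 100 simulated summits near snoRNA genes the window rule gave the right answer for 100. The expected answers used the same window limits, so this checked the code and not the reading of the deposited lists. The hosts nol-56 and top-2, and genes resting on 1 replicate, were named after their values were seen. Python 3.11.15, pandas 2.3.3, numpy 2.4.6, scipy 1.17.1 and matplotlib 3.10.9 were used.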

Additional observations from a re-analysis of the deposited data

How the results depend on the processing

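The count of 59 marked genes lay between 50 and 71 with windows of 100 or 500 bp, any overlap of at least 1 bp, the first 1584 regions of 1 replicate list (50 to 55), peaks or overlapping windows counted once (58 each), and genes near repeated 36-base runs left out (53). It was 10 with summits inside the gene only and 23 with the higher-signal 50 percent of the IDR peaks. For the same settings, intron-hosted shares were 2.11% and 7.04%, and intergenic shares 1.61% and 8.87%. Both settings admit fewer summits by construction. The difference of -8.50 percentage points turned to 0.50 with summits inside the gene only, and was -4.46 and -4.48 with 100 and 500 bp, -1.83 with the higher-signal peaks, -5.24 without repeated runs and -1.17 without genes near coding starts. Without genes that hold either letter pair, a choice made after seeing the data like that on repeated runs, the shares were 4.20% and 13.8%. Leaving out a replicate gave 12.0% to 12.7% for intron-hosted genes, 19.4% to 21.8% for intergenic genes, a difference of -9.80 to -6.68, an upstream share of 69.1% to 78.0%, and 156 to 158 genes in place of the 167 of the pooled list. With windows of 100 or 500 bp the median pooled signal was 39.0 or 30.8, against 34.8, and the replicate rho 0.71 or 0.74. No paired analysis was possible because the 2 replicates form 1 group and no result comes from a test. Depth is unknown, so a locus with no summit is one where none was listed, not one shown to be unbound.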
